A study of Mus musculus with 18 samples.

Results

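The 10 genes described here encode proteins of the contractile apparatus of smooth muscle cells and surface or signalling proteins of pericytes: Acta2, Tagln, Cnn1, Myl9, Myh11, Tpm2, Des, Rgs5, Pdgfrb and Notch3 (entered in upper case, as ACTA2, TAGLN, CNN1, MYL9, MYH11, TPM2, DES, RGS5, PDGFRB and NOTCH3). They were taken by symbol from a table of 23626 usable gene entries, all 10 were present, and their levels were compared over 18 libraries of total RNA from mouse thyroid cells sorted for YFP (a yellow fluorescent protein marking the intended thyrocytes). Tumours of 3 genotypes were profiled: BrafV600E with the K5-Tert transgene (4 libraries, called K5-Tert tumours), BrafV600E with the Tert-123C>T allele (7 libraries, Tert-123 tumours) and BrafV600E alone (4 libraries, Braf tumours). There were also 3 pooled libraries without mutant Braf, 1 of each from K5-Tert mice, Tert-123C>T mice and wild type mice. All were untreated and taken at 20 weeks. BrafV600E is an activating kinase mutation of thyroid cancer, K5-Tert is known as a transgene that expresses telomerase reverse transcriptase from a keratin 5 promoter, and Tert-123C>T is a base change in the Tert promoter. The sources used here do not give the promoter or Cre line behind the Braf allele and the YFP, or how many animals entered each pool. Each library is taken as 1 sample, and p-values measure the spread between these libraries, since the labels do not say whether each came from a separate animal.

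Smooth muscle cells and pericytes together are the mural cells of blood vessels. They contract when myosin, assembled from heavy chains such as Myh11 and regulatory light chains such as Myl9, pulls on thin filaments of smooth muscle actin (Acta2) that carry tropomyosin (Tpm2), transgelin (Tagln) and calponin (Cnn1), with desmin (Des) as the intermediate filament. Many of these genes are activated by serum response factor (Srf) bound to a short element called the CArG box, and its cofactor myocardin drives the smooth muscle programme. Pericytes are recruited to vessels through the PDGF receptor beta (Pdgfrb), depend on the receptor Notch3, and express the G protein regulator Rgs5. Activated fibroblasts and injured epithelium can also express Acta2, Tagln, Myl9 and Tpm2, and fibroblasts express Pdgfrb, so none of the 10 names a cell type alone.

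Promoter windows from RefSeq (mouse build GRCm38.p6, 250 bases before to 50 after the annotated start, given 5′ to 3′ on the gene's strand) were found for 7 of the 10 genes. Those of Acta2 and Myl9 are shown because they hold the Srf-type matches, and those of Tpm2 and Rgs5 because these genes departed most from the others in the results. The Acta2 window lies at chr19:34255324-34255623 on the minus strand, Myl9 at chr2:156775214-156775513 on the plus strand, Tpm2 at chr4:43523505-43523804 on the minus strand and Rgs5 at chr1:169655251-169655550 on the plus strand. Capitals mark matches to the CArG box, or to a CArG-like form in which 1 base of the A or T core is C or G.
Acta2: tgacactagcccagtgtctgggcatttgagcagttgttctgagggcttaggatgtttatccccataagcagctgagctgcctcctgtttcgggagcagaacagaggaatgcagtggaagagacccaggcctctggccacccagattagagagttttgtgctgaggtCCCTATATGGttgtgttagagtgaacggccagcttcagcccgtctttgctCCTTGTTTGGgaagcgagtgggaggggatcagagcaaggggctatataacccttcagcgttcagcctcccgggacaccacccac
Myl9: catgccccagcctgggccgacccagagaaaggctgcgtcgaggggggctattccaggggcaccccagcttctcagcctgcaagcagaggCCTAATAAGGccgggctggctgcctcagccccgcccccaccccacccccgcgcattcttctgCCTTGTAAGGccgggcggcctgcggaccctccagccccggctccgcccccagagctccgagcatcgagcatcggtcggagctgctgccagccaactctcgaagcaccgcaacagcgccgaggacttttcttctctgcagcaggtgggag
Tpm2: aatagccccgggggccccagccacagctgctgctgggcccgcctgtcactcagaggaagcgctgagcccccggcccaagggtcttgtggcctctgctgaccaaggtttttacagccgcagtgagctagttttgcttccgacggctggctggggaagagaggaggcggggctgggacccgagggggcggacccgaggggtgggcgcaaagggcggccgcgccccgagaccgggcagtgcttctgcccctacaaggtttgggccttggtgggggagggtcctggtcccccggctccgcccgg
Rgs5: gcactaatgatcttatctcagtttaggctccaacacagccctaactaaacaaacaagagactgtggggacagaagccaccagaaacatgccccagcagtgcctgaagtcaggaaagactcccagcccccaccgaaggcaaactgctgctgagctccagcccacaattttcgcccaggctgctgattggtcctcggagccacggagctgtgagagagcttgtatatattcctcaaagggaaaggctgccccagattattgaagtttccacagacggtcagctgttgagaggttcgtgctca
Myl9 held 1 CArG box starting 161 bases before the start and 1 CArG-like match starting 99 bases before it. Acta2 held 2 CArG-like matches, starting 84 and 34 bases before the start. The windows of Tpm2, Rgs5, Cnn1, Des and Notch3 held neither form. Both strands were searched, and the CArG-like form was added after the sequences had been read. Of 32851 promoter windows of the same length, 1.63% held a CArG box and 8.5% a CArG-like match. GTGGGAA, a sequence bound by the Notch partner Rbpj, was in 0 of the 7 windows and in 6.38% of all windows. A match or its absence describes the letters in this window and nothing further.

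The values are in TPM, transcript abundance per length scaled to the same total in every library, so levels of different genes can be set side by side. A single non-coding RNA, Rpph1, took 43.7% to 68.8% of TPM per library, and 10958 to 15045 genes reached 1 TPM. K5-Tert tumours 2 and 4 detected the fewest genes among tumours (11958 and 10958), and their levels fell most with transcript length (Spearman correlation -0.29 and -0.24 across 7773 genes with a known length, which are not independent replicates). Xist, the transcript of the inactive X chromosome of females, was at 52.5 TPM in K5-Tert tumour 3 and at most 0.0294 TPM in the other 3 K5-Tert tumours, against 64.0 to 89.9 TPM in all 4 Braf tumours. Sex and the transgene were therefore partly confounded. Xist was also at most 0.0636 TPM in Tert-123 tumours 5, 6 and 7, against 54.5 to 88.1 TPM in Tert-123 tumours 1 to 4. It was at 1.29, 10.9 and 43.2 TPM in the K5-Tert, Tert-123 and wild type pools. The comparisons with Tert-123 tumours and with the pools were therefore not balanced for sex either. Every K5-Tert tumour carries a later sample number than any other tumour, and a difference in handling cannot be told apart from the transgene. The mean level of Tert itself was 39.3 ± 29.4 TPM across the 4 K5-Tert tumours, 5.18 ± 1.34 TPM across the 7 Tert-123 tumours and 4.59 ± 0.60 TPM across the 4 Braf tumours (SD), and it was at 125 TPM in the K5-Tert pool, 8.79 TPM in the Tert-123 pool and 2.15 TPM in the wild type pool.

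The sorted libraries held RNA of other cell types in amounts that differed between libraries. The summed level of 14 fibroblast markers was 263 to 2066 TPM in K5-Tert tumours, 116 to 2924 TPM in Tert-123 tumours and 208 to 873 TPM in Braf tumours, and it was 40.5, 410.5 and 48.8 TPM in the K5-Tert, Tert-123 and wild type pools. The 11 endothelial markers summed to 26.8 to 268 TPM in K5-Tert tumours, 87.9 to 161 TPM in Tert-123 tumours and 51.9 to 99.1 TPM in Braf tumours, and to 224, 2036 and 680 TPM in the same 3 pools. K5-Tert tumour 3 and Tert-123 tumour 4 had the highest fibroblast and macrophage sums, and the Tert-123 pool the highest endothelial sum. K5-Tert tumour 4 had the lowest fibroblast and endothelial sums of its group. Of the thyrocyte markers, thyroglobulin (Tg) was lower in tumours (-7.49 on the log2 scale, limma adjusted p = 1.02e-11), while Epcam, Krt8 and Krt18 were abundant throughout (at least 129, 359 and 490 TPM in every library). Between tumours, 3 of the 9 thyrocyte markers tested were lower in K5-Tert than in Braf tumours, the transcription factors Hhex (-1.37), Nkx2-1 (-1.31) and Pax8 (-1.27), with limma adjusted p = 0.00747, 0.00968 and 0.0288. The same 3 were lower than in Tert-123 tumours, and with TMM-type factors 2 of the 9 were lower than in Braf tumours. Over all genes tested, 21.2% were called lower than in Braf tumours and 28.5% lower than in Tert-123 tumours. Counts this small therefore say little about the list. Among 5 basal and myoepithelial markers, the sum was 9.45 to 121 TPM in K5-Tert tumours and 32.2 to 49.0 TPM in Braf tumours, and the 121 TPM of K5-Tert tumour 1 came mostly from the keratins Krt14 (61.8 TPM) and Krt5 (29.2 TPM). The 17 striated muscle markers summed to 4.71 to 42.3 TPM in tumours and 5.52 to 30.4 TPM in pools, and myocardin (Myocd), the defining cofactor of smooth muscle, stayed under 1 TPM in every library. In bulk RNA, more cells of a type and more RNA per cell cannot be told apart.

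**Figure D1:**
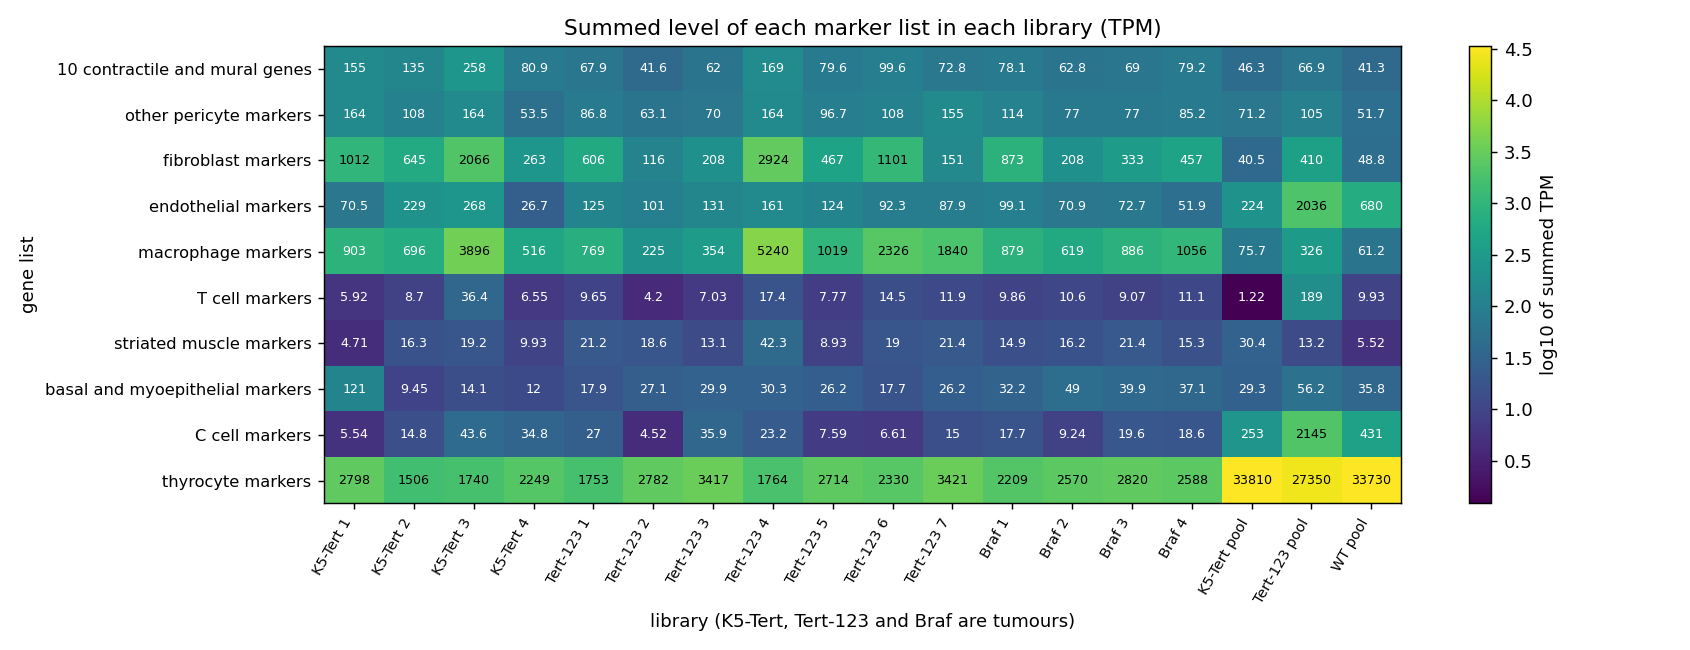
Summed TPM of the 10 genes and of 9 marker lists (rows) in each of the 18 libraries (columns), with colour on a log10 scale. K5-Tert tumour 3 and Tert-123 tumour 4 stand out for fibroblast and macrophage markers, the Tert-123 pool for endothelial markers, and the 3 pools for thyrocyte markers.

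Smooth muscle actin, transgelin and Rgs5 were higher in K5-Tert tumours than in Braf tumours, by 3.39-fold, 3.31-fold and 4.21-fold on the log2(TPM + 1) scale. The first 2 belong to the contractile filaments and Rgs5 to pericytes. These 3 of the 7 genes that could be tested passed limma's moderated test at an adjusted p under 0.05, and 0 of 7 passed in the lower direction. Over all 7825 genes tested, 0.626% were called higher and 21.2% lower, and the median difference of all genes was -0.47 on the log2 scale, against 1.08 for the 7. With TMM-type scaling factors, which bring the median of all genes to 0.02, 486 genes were called higher and 649 lower, and the same count of 3 of the 7 was called higher. A gene was tested when it reached 10 TPM in at least 4 of the 18 libraries. Cnn1, Des and Notch3 did not. Rgs5 did so only through K5-Tert tumours 1, 2 and 3 and the Tert-123 pool, and Acta2 through 4 K5-Tert and 3 Tert-123 tumours, with 0 Braf tumours and 0 pools. Without the K5-Tert tumours neither would have passed, so 2 of the 3 called genes entered through the group in which they were high. Tagln reached 10 TPM in 11 libraries, 7 of them outside that group.

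**Figure D2:**
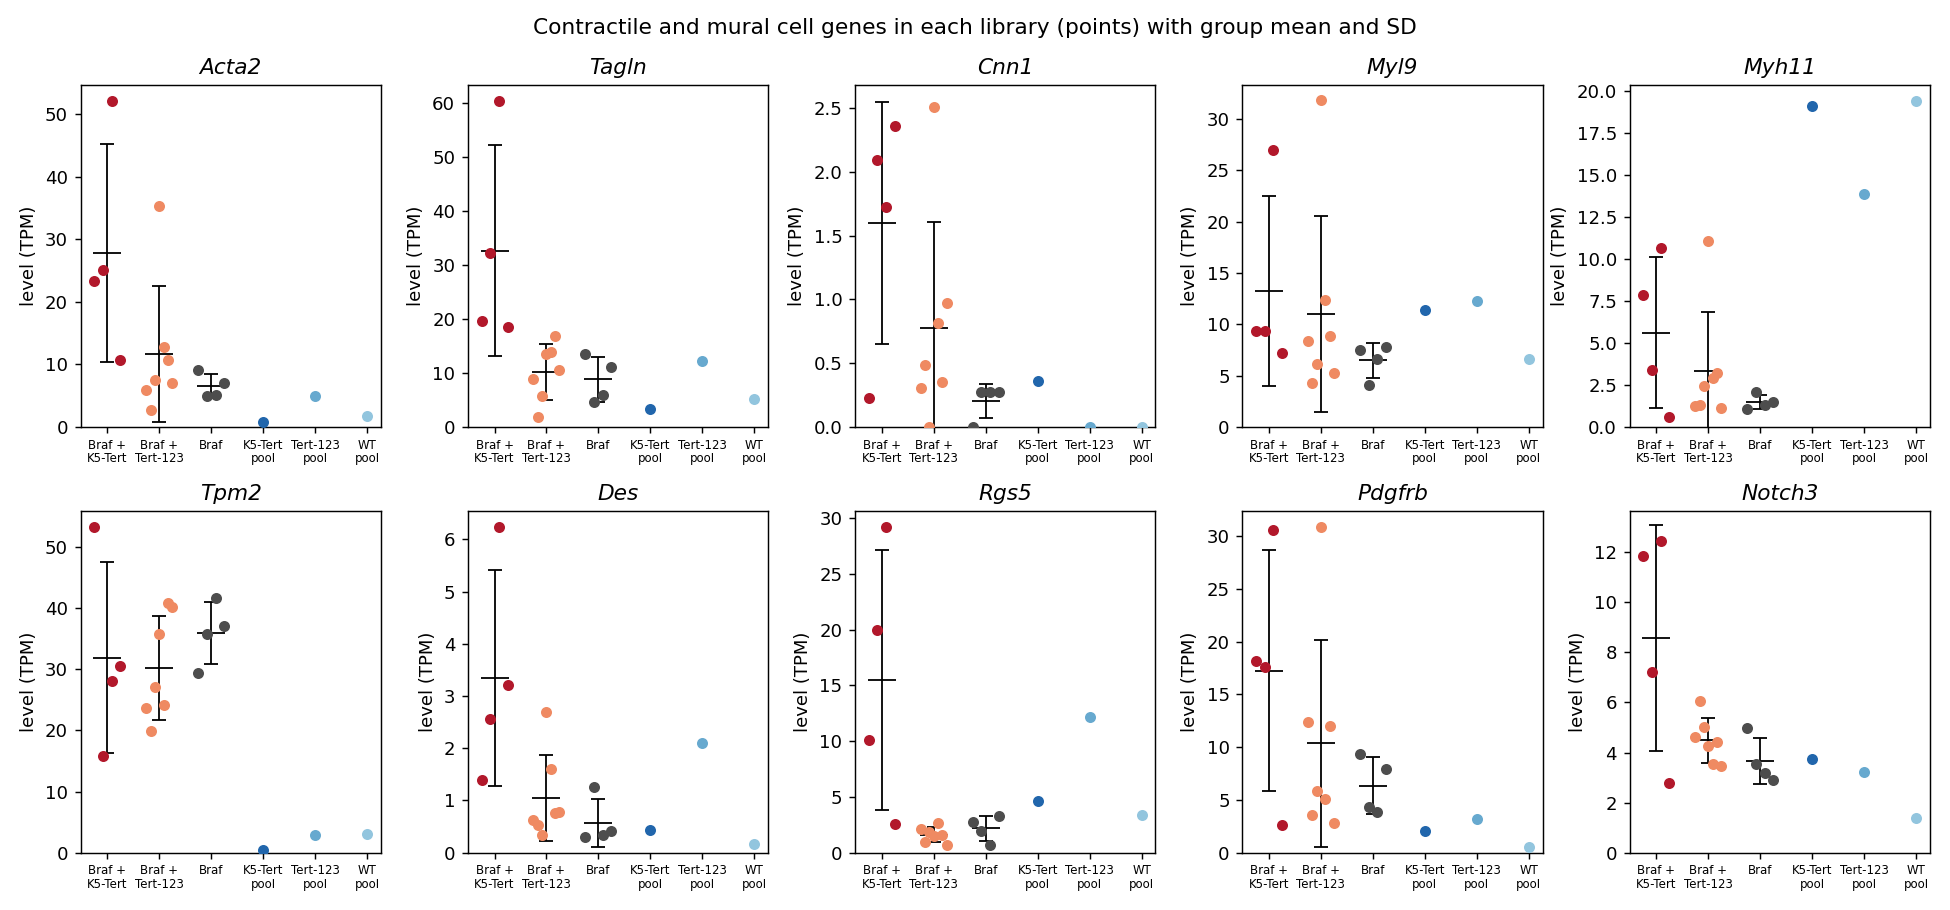
Level of each of the 10 genes in TPM (vertical axes, from 0) in the 18 libraries; points are libraries, horizontal ticks group means and bars SD, ending at 0 where they would pass below it. All K5-Tert tumours lay above all Braf tumours for Acta2, Tagln and Des, Tpm2 was at least 15.9 TPM in every tumour and at most 3.01 TPM in the pools, and Myh11 was highest in the pools.

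Acta2, the actin of smooth muscle thin filaments, was at 23.3, 25.1, 52.1 and 10.6 TPM in K5-Tert tumours, against 9.14, 4.97, 5.17 and 6.95 TPM in Braf tumours. All 4 K5-Tert tumours lay above all 4 Braf tumours, and tumour 3 was the highest. The difference was 1.76 on the log2 scale (SE 0.51, limma adjusted p = 0.0238). Tagln, an actin-binding protein of the calponin family, was at 19.6, 32.1, 60.3 and 18.5 TPM in K5-Tert tumours, against 13.5, 4.62, 5.86 and 11.1 TPM in Braf tumours. Its groups did not overlap either, and tumour 3 was again the highest. The difference was 1.73 (SE 0.49, adjusted p = 0.0211). Among the genes tested, 1.14% had all K5-Tert tumours above all Braf tumours and 16% had them all below. Part of the Tagln gene, 67.9% of its exonic bases in the mouse annotation (GENCODE vM21), is shared with exons of other genes, most of it with an antisense transcript. The sources do not say whether counting used strand, so reads of those stretches cannot be assigned. Pcsk7, the other gene there, was at 5.02 to 11.0 TPM in K5-Tert tumours and 9.29 to 11.5 TPM in Braf tumours.

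Cnn1, smooth muscle calponin, was scarce, at 0.227, 2.09, 1.73 and 2.36 TPM in K5-Tert tumours and at 0, 0.272, 0.272 and 0.27 TPM in Braf tumours. In 3 of 4 K5-Tert tumours it lay above every Braf tumour. Fitted over all 22693 genes with any signal, its difference was 1.02 (95% interval 0.27 to 1.77, limma adjusted p = 0.0855). Des, the intermediate filament of muscle, was at 1.39, 2.56, 6.25 and 3.21 TPM in K5-Tert tumours, against 0.291, 1.25, 0.334 and 0.415 TPM in Braf tumours, so the groups did not overlap. In the same unfiltered fit its difference was 1.39 (interval 0.62 to 2.17, adjusted p = 0.0383). At such low levels the values rest on few reads, whose number the files do not give.

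The motor proteins Myl9 and Myh11 did not pass the test. Myl9, the regulatory light chain whose phosphorylation starts contraction, was at 9.33, 9.34, 27.0 and 7.20 TPM in K5-Tert tumours and at 7.54, 4.04, 6.64 and 7.74 TPM in Braf tumours. K5-Tert tumour 3 lay apart and tumour 4 fell within the Braf range. The difference was 0.77 (95% interval -0.20 to 1.75, limma adjusted p = 0.218). Myh11, the smooth muscle myosin heavy chain, was at 7.82, 3.38, 10.6 and 0.60 TPM in K5-Tert tumours and at 1.06, 2.05, 1.32 and 1.46 TPM in Braf tumours. The K5-Tert tumours included both the highest values and the lowest one of these groups. The difference was 1.08 (interval -0.37 to 2.53, adjusted p = 0.244).

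Tpm2, beta-tropomyosin, which lies along the actin filament, was at 53.3, 15.9, 28.04 and 30.5 TPM in K5-Tert tumours and at 29.4, 35.8, 41.7 and 37.1 TPM in Braf tumours. It was the only one of the 10 whose mean was lower in K5-Tert tumours, and its groups overlapped. The difference was -0.28 (interval -0.91 to 0.36, limma adjusted p = 0.497), and its sign turned with TMM-type factors (0.23), quantile normalization (0.12) and removal of the length trend (0.19).

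Among the pericyte genes, Rgs5, which shortens G protein signals, was at 10.1, 20.0, 29.2 and 2.57 TPM in K5-Tert tumours, against 2.76, 1.91, 0.708 and 3.30 TPM in Braf tumours. K5-Tert tumours 1 to 3 were above every Braf tumour and tumour 4 was within their range. The difference was 2.07 (SE 0.61, adjusted p = 0.0243, limma). Pdgfrb, the receptor for PDGF-B, was at 18.1, 17.6, 30.6 and 2.62 TPM in K5-Tert tumours and at 9.38, 4.30, 3.80 and 7.88 TPM in Braf tumours. Here K5-Tert tumour 4 was below all Braf tumours, and the difference of 1.03 did not pass (interval -0.26 to 2.32, adjusted p = 0.216). Notch3, the receptor that maintains mural cells, showed the same arrangement, with 11.8, 7.20, 12.5 and 2.80 TPM in K5-Tert tumours and 4.98, 3.56, 3.20 and 2.91 TPM in Braf tumours. In the unfiltered fit it differed by 0.90 (interval 0.17 to 1.62, adjusted p = 0.109).

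K5-Tert tumour 4, the library lowest of its group in fibroblast and endothelial markers, was also the lowest of the 4 for Acta2, Tagln, Myl9, Myh11, Rgs5, Pdgfrb and Notch3. It was the highest of the 4 for Cnn1 (2.36 TPM), and neither highest nor lowest for Des and Tpm2. It was above every Braf tumour for Acta2, Tagln, Cnn1 and Des. With the mean log2 level of the fibroblast markers as a covariate, the differences between K5-Tert and Braf tumours were 1.27 for Acta2, 1.36 for Tagln and 1.80 for Rgs5 (limma adjusted p = 0.00965, 0.0178 and 0.0272). With the endothelial mean they were 1.30, 1.44 and 1.57 (adjusted p = 0.0473, 0.0474 and 0.0460). Both covariates were added after seeing the data. The 3 calls were all lost with Xist as a covariate (differences of 2.01, 1.48 and 2.48, adjusted p = 0.0787, 0.136 and 0.0630) and without any 1 of K5-Tert tumour 2, K5-Tert tumour 3, Braf tumour 2 or Braf tumour 3. The call of Acta2 was also lost without Braf tumour 4 (adjusted p = 0.0508), those of Acta2 and Tagln without the level filter (adjusted p = 0.0606 and 0.0554), and that of Rgs5 with library weights (1.09, adjusted p = 0.104). Without K5-Tert tumour 3 the differences were 1.40, 1.38 and 1.65.

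**Figure D3:**
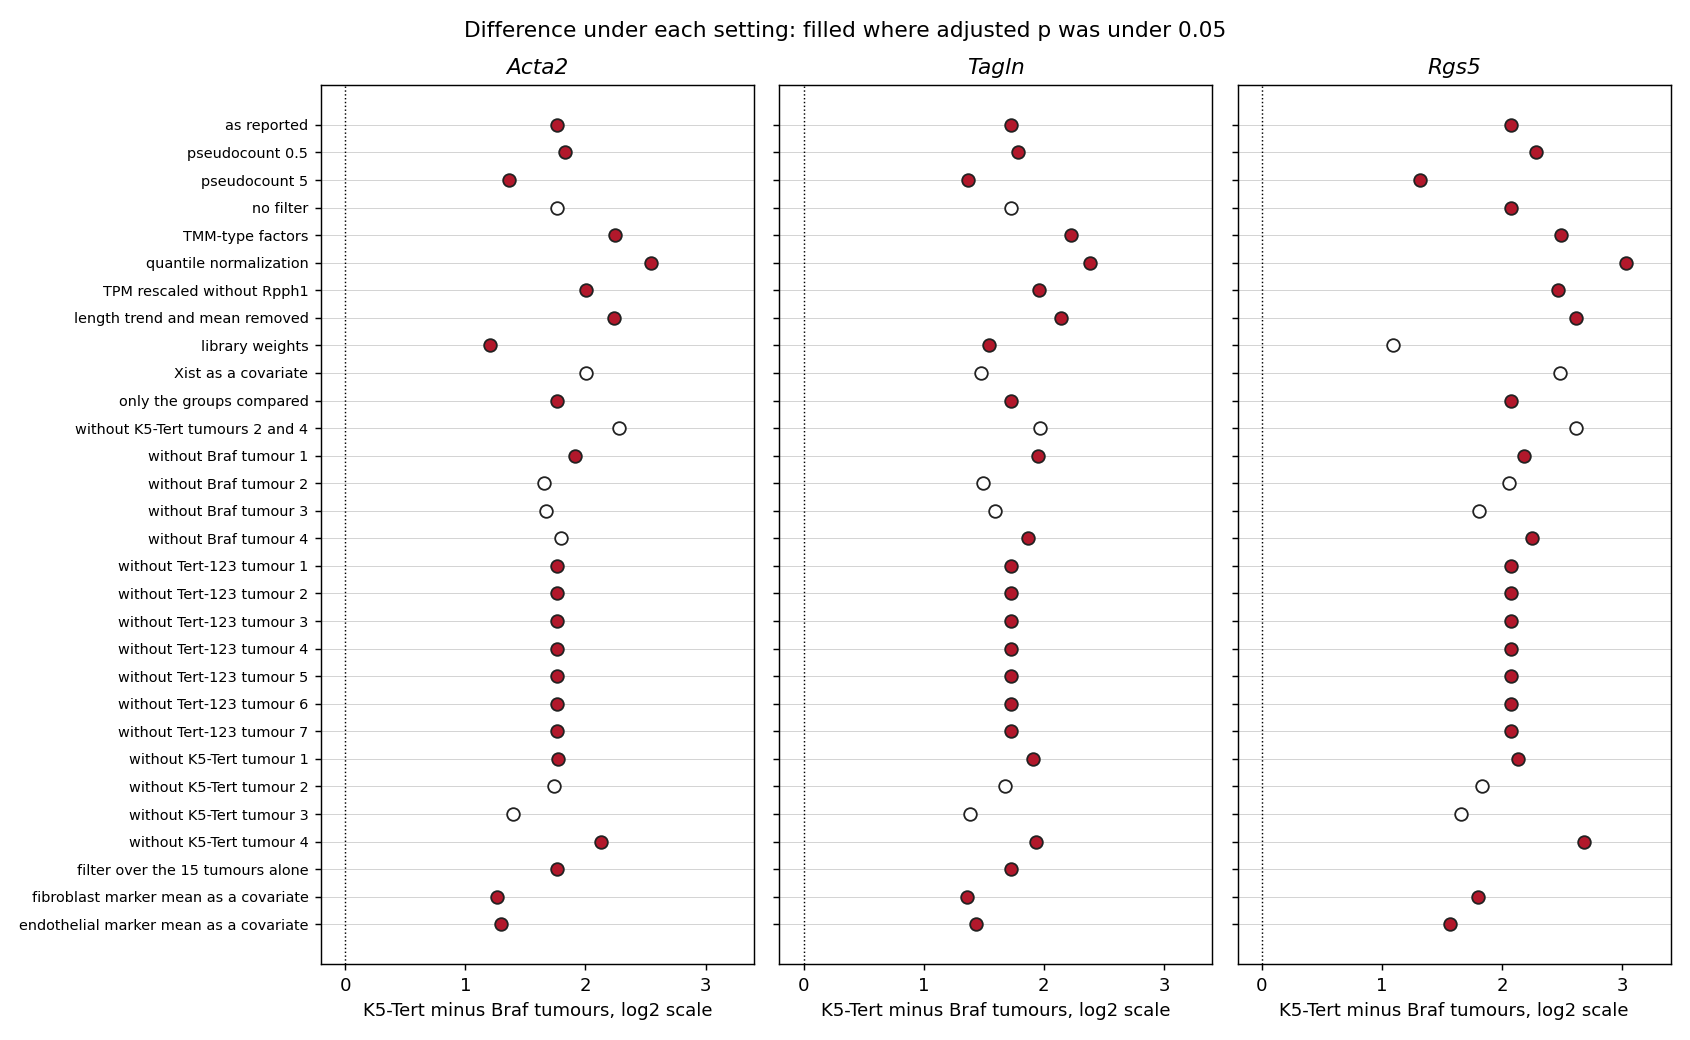
Difference between K5-Tert and Braf tumours in log2 level (horizontal axes) for Acta2, Tagln and Rgs5 under the reported setting and each alternative (rows); filled points had an adjusted p under 0.05. Every value lay above 1, and filled points turned open with Xist as a covariate and without several single tumours.

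Tert-123 tumours did not differ detectably from Braf tumours in any of the 7 genes. Over all 7825 genes, 0% were called in either direction by limma, 51 had an unadjusted p under 0.05, and 0 of the 7 were among these. That is fewer than this threshold would pass by chance. The fit took its spread from all 3 tumour groups, and K5-Tert tumours varied widely. The SD of Acta2 was 17.4 TPM there, 10.9 TPM in Tert-123 tumours and 1.94 TPM in Braf tumours. These p-values therefore do not measure the spread of Tert-123 and Braf tumours alone. Acta2 ranged over 2.67, 7.49 and 35.2 TPM (lowest, median and highest) in Tert-123 tumours, against 4.97, 6.06 and 9.14 TPM in Braf tumours. The groups overlapped, and tumour 4 held the highest value. The difference was 0.44 (95% interval -0.51 to 1.39). The intervals were -0.81 to 0.996 for Tagln, -1.36 to 0.89 for Rgs5 and -0.84 to 0.28 for Tpm2, and a p that misses the threshold does not show that the genotypes were alike. All Tert-123 tumours lay above all Braf tumours for 0.0256% of genes and below them for 0.0767%, and for 0 of the 10.

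One Tert-123 tumour stood apart. Tumour 4 was the highest of the 15 tumours for Myl9 (31.8 TPM), Myh11 (11.0 TPM), Pdgfrb (30.9 TPM) and Cnn1 (2.50 TPM), and its Acta2 (35.2 TPM) and Des (2.69 TPM) were the highest of its group. Its Rgs5 was 1.51 TPM, within the 0.671 to 2.62 TPM of the other Tert-123 tumours, and its Tagln of 13.5 TPM and Notch3 of 4.27 TPM were also within the range of its group. This library had the highest fibroblast sum of all (2924 TPM), with Col1a1 at 785 TPM, and the highest macrophage sum (5240 TPM). The part of those cells in its values was not tested.

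K5-Tert tumours exceeded Tert-123 tumours in the same 3 genes. Both comparisons use the same K5-Tert tumours, so they are not independent. As before, Acta2 and Rgs5 passed the level filter only with the K5-Tert tumours, in which they were high. Rgs5 reached 10 TPM in 0 Tert-123 tumours. Without the filter, Rgs5 and Tagln kept their calls (limma adjusted p = 0.0136 and 0.03825). Of the genes tested, 0.805% were called higher and 28.5% lower, with a median difference of -0.47 over all genes and 0.70 over the 7. Acta2 was higher by 1.32 (SE 0.46, limma adjusted p = 0.0369), although Tert-123 tumour 4 lay above 3 of the 4 K5-Tert tumours. Tagln was 18.5 to 60.3 TPM in K5-Tert tumours, against 1.77, 10.5 and 16.7 TPM (lowest, median and highest) in Tert-123 tumours. The groups did not overlap, as for 0.243% of genes in that direction and 5.19% in the other, and the difference was 1.63 (SE 0.43, adjusted p = 0.0128). Rgs5 showed the largest log2 difference of the 10, with a mean of 15.5 ± 11.6 TPM across the 4 K5-Tert tumours and 1.62 ± 0.66 TPM across the 7 Tert-123 tumours (SD). The difference was 2.31 (SE 0.54, adjusted p = 0.00772), and 3 of 4 K5-Tert tumours exceeded every Tert-123 tumour. All 3 calls were lost without K5-Tert tumour 2, where the adjusted p was 0.117 for Acta2, 0.0566 for Tagln and 0.0605 for Rgs5, and with library weights. The call of Acta2 was also lost without K5-Tert tumour 3, without any 1 of Tert-123 tumours 1, 2, 3 and 7, with only the compared groups in the fit, and without the level filter (adjusted p = 0.0873).

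The intervals of the other genes in this comparison were -0.53 to 1.19 for Myl9, -0.76 to 1.82 for Myh11, -0.45 to 1.84 for Pdgfrb and -0.56 to 0.56 for Tpm2. In the unfiltered fit the difference was 0.56 for Cnn1, 1.06 for Des and 0.66 for Notch3 (limma adjusted p = 0.240, 0.0501 and 0.161). Notch3 was 4.49 ± 0.90 TPM in Tert-123 tumours (SD, n = 7), and 3 of 4 K5-Tert tumours lay above all of them while tumour 4 lay below all of them.

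**Figure D4:**
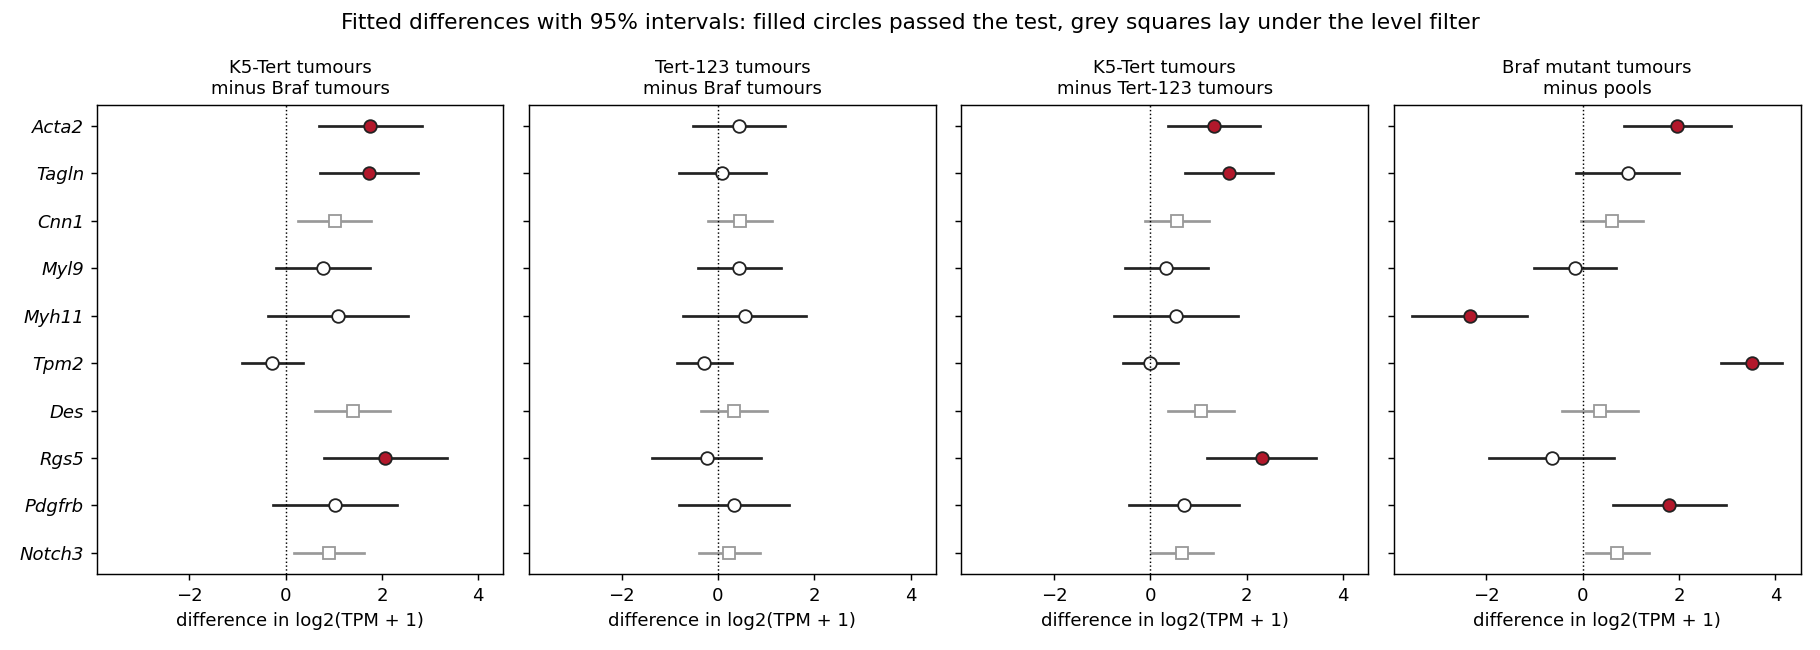
Difference in log2(TPM + 1) with its 95% interval (horizontal axes) for the 10 genes in 4 comparisons (panels). Filled circles passed the test, open circles did not, and grey squares are genes under the level filter, fitted over all genes with any signal; Tpm2 and Myh11 stand farthest from 0, in opposite directions, in tumours against pools.

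Against the pools without mutant Braf, the tumours showed opposite changes within the list. Tpm2 was 11.4-fold higher in the tumours, Acta2 3.88-fold and Pdgfrb 3.47-fold higher, and Myh11 was lower, at 0.197 of the pool level on the log2(TPM + 1) scale. These were 3 higher and 1 lower of the 7 tested, where 15.4% of all genes were called higher and 10% lower, with a median of 0.07 over all genes and 0.93 over the 7. Each pool is a single library, so no pool has a replicate. The fit had additive terms for Braf, Tert-123 and K5-Tert, and its spread came from the tumours (12 of 14 residual degrees of freedom) and from how the pools departed from additivity.

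Tpm2 was at 15.9, 30.5 and 53.3 TPM (lowest, median and highest) in the 15 tumours, against 0.404 TPM in the K5-Tert pool, 2.91 TPM in the Tert-123 pool and 3.01 TPM in the wild type pool. All 15 tumours of all 3 genotypes lay above every pool, as was so for 5.71% of genes. The difference was 3.51 (SE 0.30, limma adjusted p = 1.29e-08), and it was 3.23 with the fibroblast covariate and 3.63 with the endothelial one (adjusted p = 1.89e-07 and 4.44e-06). It kept its call in all 32 alternatives.

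Myh11 ran the other way, at 0.60, 2.05 and 11.0 TPM (lowest, median and highest) in the 15 tumours, against 19.1, 13.8 and 19.4 TPM in the K5-Tert, Tert-123 and wild type pools. All 15 tumours lay below every pool, as for 5.69% of genes, and the difference was -2.35 (SE 0.58, limma adjusted p = 0.00395). In the same pools Acta2 was at 0.805, 5.01 and 1.68 TPM and Cnn1 at 0.36, 0 and 0 TPM, so Myh11 stood above Acta2 in each pool and below it in each tumour. Myh11 reached 10 TPM in the 3 pools and in 2 tumours, so it passed the filter only through the pools, where it was high, while Tpm2, Acta2 and Pdgfrb reached it in 0 pools and passed through the tumours. Without the filter all 4 were called by limma, with adjusted p = 0.00353 for Myh11, 2.16e-07 for Tpm2, 0.0228 for Acta2 and 0.0443 for Pdgfrb. The Myh11 call was lost with the endothelial covariate (-1.19, adjusted p = 0.284) and without the wild type pool (-2.01, adjusted p = 0.0611).

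Acta2 was above every pool in 13 of 15 tumours, and the difference was 1.96 (SE 0.54, limma adjusted p = 0.00909). Pdgfrb was also above every pool in 13 of 15, at 2.62, 7.88 and 30.9 TPM in tumours (lowest, median and highest) and 2.04, 3.18 and 0.564 TPM in the K5-Tert, Tert-123 and wild type pools, with a difference of 1.79 (SE 0.56, adjusted p = 0.0221). Collagen genes of the fibroblast list moved with both: Col1a1 was 3.55 higher (adjusted p = 0.00191). With the fibroblast covariate the differences were 0.71 for Acta2 and 0.46 for Pdgfrb (adjusted p = 0.185 and 0.427). Both calls were also lost without the K5-Tert pool (1.08 and 1.59, adjusted p = 0.154 and 0.0862), and that of Pdgfrb without the wild type pool (adjusted p = 0.112).

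Myl9, Tagln and Rgs5 did not pass against the pools. Myl9 was 4.04 to 31.8 TPM in tumours and 11.4, 12.3 and 6.59 TPM in the K5-Tert, Tert-123 and wild type pools (difference -0.16, 95% interval -1.02 to 0.70). Rgs5 was at 4.62, 12.2 and 3.39 TPM in the same pools, and 12 of 15 tumours lay below all of them while K5-Tert tumours 2 and 3 lay above. Its difference was -0.64 (interval -1.94 to 0.66), with the opposite sign (0.31) without the Tert-123 pool, the library richest in endothelial markers. Among the pools, the one carrying K5-Tert without mutant Braf was the lowest of the 3 for Acta2, Tagln and Tpm2. Its Tagln was 3.29 TPM, against 12.2 and 5.16 TPM in the Tert-123 and wild type pools. It was the highest of the 3 for Cnn1 (0.36 TPM, against 0 and 0 TPM) and Notch3 (3.73 TPM, against 3.22 and 1.37 TPM). It lay between the other pools for Myl9, Des, Myh11, Rgs5 and Pdgfrb. The pools thus showed no common direction with K5-Tert.

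Each smooth muscle protein was also set against its own family, as a share within a library. Acta2 made up 0.946 ± 0.452% of actin TPM across the 4 K5-Tert tumours, 0.318 ± 0.247% across the 7 Tert-123 tumours and 0.207 ± 0.082% across the 4 Braf tumours (SD). Tagln made up 9.44 ± 4.98% of transgelin TPM in K5-Tert tumours, 2.78 ± 1.39% in Tert-123 tumours and 2.49 ± 1.30% in Braf tumours. In both families every K5-Tert tumour was above every Braf tumour. The TPM of Acta2 and Tagln did not overlap between these groups either, so the shares are not a separate result. For Cnn1, Myl9 and Myh11 the shares overlapped. Cnn1 was 0.116 to 1.755% of calponin TPM in K5-Tert tumours and 0 to 0.142% in Braf tumours. Myl9 was 1.93 to 5.8% and 0.895 to 1.99% of regulatory light chain TPM in the same groups, and Myh11 0.181 to 1.76% and 0.142 to 0.290% of its family. Tpm2 was 4.54 ± 1.11%, 3.39 ± 0.81% and 3.70 ± 0.21% of tropomyosin TPM in K5-Tert, Tert-123 and Braf tumours, against 0.0737, 0.685 and 0.761% in the K5-Tert, Tert-123 and wild type pools. Myh11 was 1.13 ± 0.71%, 0.408 ± 0.406% and 0.197 ± 0.065% of myosin heavy chain TPM in the same 3 tumour genotypes, against 4.68, 3.36 and 5.57% in the pools.

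**Figure D5:**
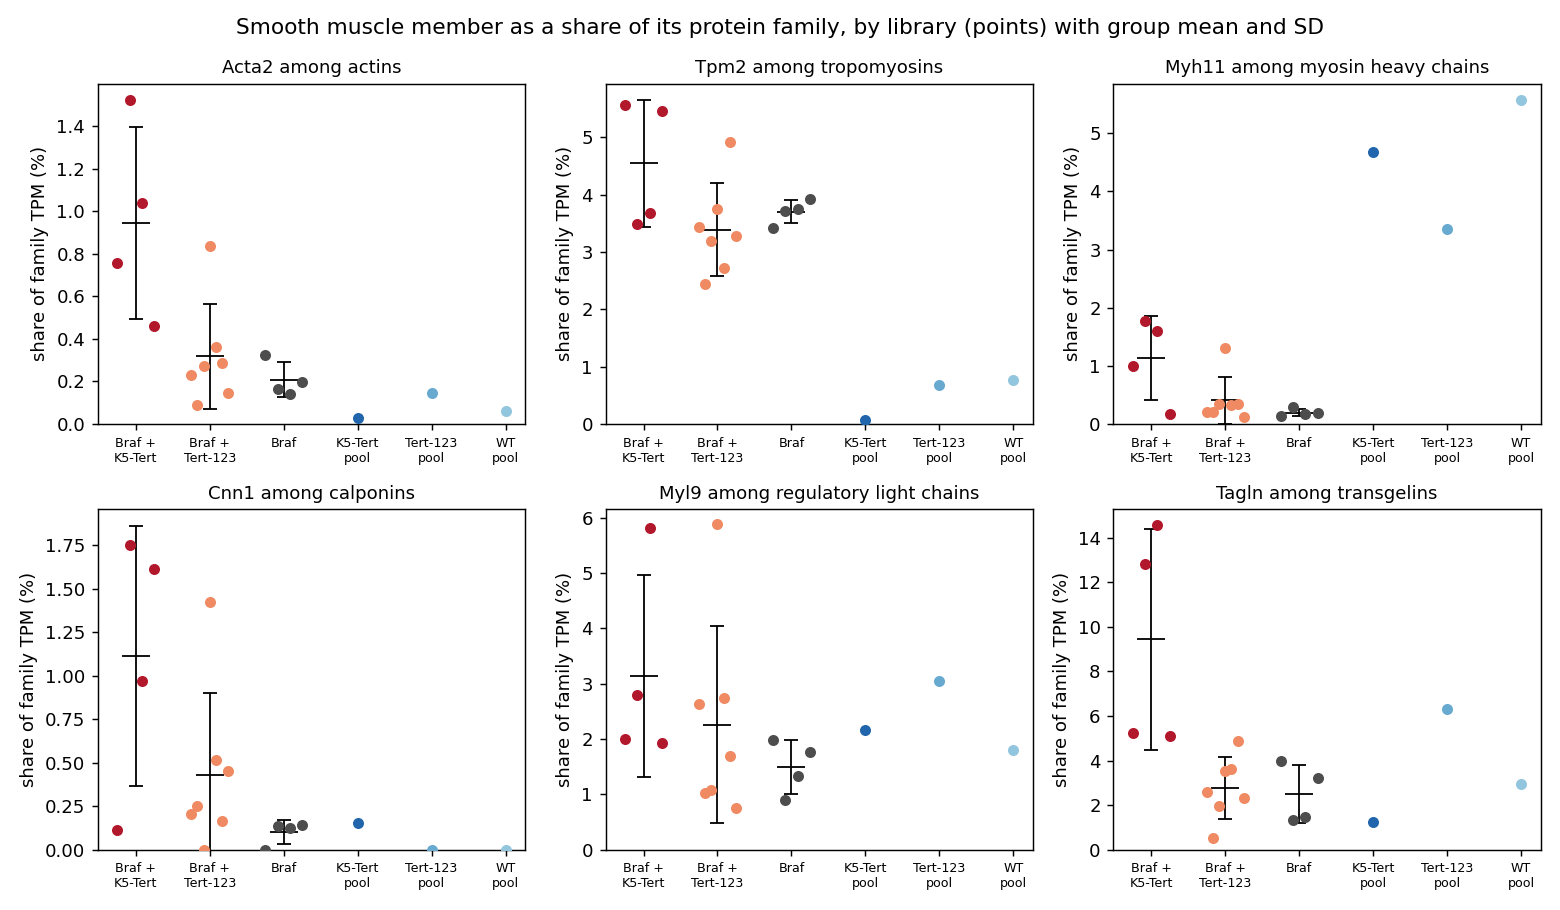
Share of each protein family's summed TPM taken by its smooth muscle member (vertical axes, percent, from 0) in the 18 libraries; points are libraries, ticks group means and bars SD, ending at 0. Acta2 and Tagln took their largest mean shares in K5-Tert tumours, while Tpm2 took under 1% and Myh11 over 3% in the pools.

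The 10 genes did not vary as one. Over the 15 tumours, the Pearson correlation of log2(TPM + 1) was 0.87 between Acta2 and Tagln and 0.84 between Cnn1 and Des, whereas Tpm2 correlated with the other 9 at a median of -0.02 and at most 0.16. Acta2 had a median of 0.80 with the others, and 0.63 without K5-Tert tumour 3 and Tert-123 tumour 4, the libraries that shared the highest fibroblast and macrophage sums. Pdgfrb followed the fibroblast mean at 0.95, and at 0.91 without those 2 libraries, Myl9 at 0.88 and 0.74, and Cnn1 at 0.31 and -0.20. The 15 libraries are of 3 genotypes and each gives all 10 values, so these correlations are a description and carry no test.

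Of 7824 other genes, those closest to Acta2 were Srgn, a proteoglycan of blood cell granules, Gpx3 and Plek (Pearson r 0.93, 0.91 and 0.90 over 15 tumours). Those closest to Tagln were Plek, Srgn and the monocyte receptor Cd14 (0.89, 0.88 and 0.88), and those closest to Rgs5 were Il1r2, Nr4a3 and the water channel Aqp1 (0.83, 0.82 and 0.82). Pdgfrb lay closest to the matrix genes Mgp and Mfap5 and to the cadherin Cdh11 (0.96, 0.96 and 0.95). Myl9 lay closest to Grb10, Acvrl1 and Thbd (0.93, 0.92 and 0.90), the last of which is an anticoagulant receptor of endothelium. Myh11 lay closest to Dusp3, Pxdc1 and Jcad (0.92, 0.90 and 0.89). Tpm2 lay closest to Anxa3, Phlda3 and the epithelial laminin chain Lama3 (0.92, 0.90 and 0.90), with 0 of the other listed genes among its nearest 100, against 4 for Acta2.

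No tested gene of the wider contractile programme was called higher in K5-Tert than in Braf tumours. Only 0.626% of all genes were called higher there and 21.2% lower, so counts this small say little about a list. Of 20 other smooth muscle genes, 11 were tested against Braf tumours, 0 were higher and 2 lower, with a median of -0.27. The rest lay under the level filter and were not tested. The lower ones were Ppp1r12b, a myosin phosphatase subunit (-1.24, limma adjusted p = 0.00559), and Tpm1, alpha-tropomyosin (-0.88, adjusted p = 0.0191). Scaling bears on this, since all genes had a median of -0.47 here and of 0.02 with TMM-type factors: 49 higher and 1662 lower genes became 486 and 649, and the list's median became 0.24 with 1 gene lower. Actg2, the other smooth muscle actin, was at 0.374, 4.20, 11.98 and 3.23 TPM in K5-Tert tumours and 1.43 to 3.34 TPM in Braf tumours. Of 9 Srf-related genes found, 7 were tested, 0 were higher and 1 was lower, the Srf cofactor entered under its older symbol MKL2 (-0.98, adjusted p = 0.0278). With TMM-type factors 0 of the Srf-related genes were called. Of the 19 widely expressed actin cytoskeleton genes tested, 0 were called in either direction. Against Tert-123 tumours, 0 of the 11 other smooth muscle genes were higher and 5 lower, where 0.805% and 28.5% of all genes were, among them Ppp1r12b (-1.19, adjusted p = 0.00331) and Tpm1 (-0.69, adjusted p = 0.0235).

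The companions of the pericyte genes that could be tested did not pass in K5-Tert tumours either. Of 18 other pericyte markers found, 5 were tested against Braf tumours and 0 were called, with a median of -0.06. The rest lay under the level filter, so whether they accompanied Rgs5 was not tested. Since 0.626% of all genes were called higher and 21.2% lower, counts this small say little about a list. Cspg4 (NG2, a pericyte proteoglycan) was at 11.1, 10.2, 11.8 and 2.13 TPM in K5-Tert tumours and 5.36 to 10.3 TPM in Braf tumours. Rgs4, the relative of Rgs5, was at 70.8, 17.0, 19.5 and 25.3 TPM in K5-Tert tumours and 20.6 to 28.1 TPM in Braf tumours, and its groups overlapped. Kcnj8, a pericyte potassium channel subunit, was under the filter. It was at 5.42, 8.57, 7.26 and 3.16 TPM in K5-Tert tumours and 1.61 to 4.51 TPM in Braf tumours. Ndufa4l2, also under the filter, was at 7.93, 6.34, 8.15 and 0 TPM in K5-Tert tumours and 0 to 1.34 TPM in Braf tumours. For Kcnj8, Ndufa4l2, Gucy1a1 and Gucy1b1, K5-Tert tumours 1 to 3 lay above every Braf tumour, as for Rgs5. For Cox4i2, Gja4, Higd1b, Steap4 and Vtn, also under the filter, they did not. Gucy1a1 and Gucy1b1 stayed under 2 TPM in these groups. Of 7 tested Notch pathway genes and 4 PDGF genes, 0 were called. Of 12 fibroblast markers tested 1 was higher, Thy1 (2.03, limma adjusted p = 0.0420), with a list median of 0.97, and of 9 macrophage markers 1 was higher, Cd14 (2.18, adjusted p = 0.0199). Among 7 endothelial markers 0 were called, with a median of 0.45.

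Against the pools, where 15.4% of all genes were called higher and 10% lower, the other lists held calls in both directions. Of the 11 other smooth muscle genes tested, 4 were higher in tumours, among them Tpm1 (1.35) and the phosphatase inhibitor Ppp1r14a (2.17), and 2 were lower, the light chain kinase Mylk (-1.92) and Smoc2 (-2.92), with limma adjusted p from 5.63e-05 to 0.0185 for these 4. Mylk was at 6.07 to 20.0 TPM in tumours, against 56.2, 34.0 and 48.0 TPM in the K5-Tert, Tert-123 and wild type pools. Srf was lower in tumours as well (-1.47, adjusted p = 0.000466). Of the 5 other pericyte markers tested, 3 were higher: Rgs4 (4.10, adjusted p = 2.56e-06), Cspg4 (2.63, adjusted p = 1.98e-05) and Anpep (1.504, adjusted p = 0.0417). Of the PDGF ligands, Pdgfc (2.66, adjusted p = 3.64e-05) and Pdgfd (0.83, adjusted p = 0.0304) were higher and Pdgfa was lower (-1.08, adjusted p = 0.0165). Markers of other cells moved too, with 6 of 12 fibroblast markers higher, 6 of 9 macrophage markers higher and 6 of 7 endothelial markers lower, and their part in the changes of the contractile genes was not tested beyond the covariate fits above.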

How the data were processed

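Levels were taken from a table of TPM values deposited by the authors, in which every library has the same total. For the aligner, gene annotation and build: not given in the sources used here. The table holds no read counts, so depth is unknown and no counting interval is given. Per the labels' design text, 9000 to 20000 YFP+ cells were sorted per library, with 14 PCR cycles and paired 100-base reads. Of 23652 entries, 26 whose symbols had become dates were dropped, holding at most 0.0455% of any library's TPM, and 23144 of the rest matched a reference symbol.

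Differences were tested with limma 3.58.1 (R 4.3.3) on log2(TPM + 1), with a mean-variance trend, two-sided, over the 7825 genes at 10 TPM or more in at least 4 of 18 libraries, with Benjamini-Hochberg adjustment and a threshold of 0.05. The 3 tumour groups were fitted together (12 residual degrees of freedom), and all 18 libraries with additive terms for Braf, Tert-123 and K5-Tert (14). On this scale a fold change understates that of low genes. The pipeline was run on simulated data, but the outcome is not reported here and no conclusion rests on it. Alternatives covered the pseudocount, filter, scaling, library weights, Xist, the groups fitted and each library left out. The members and gene lists were chosen with earlier results of these data known. Genes outside the 10 were named by a rule. It took up to 4 called genes per list by smallest p, otherwise those with the highest level. Defining markers and the 3 nearest genes of each tested member were named too. Other genes named, such as Actg2, Kcnj8 and Ndufa4l2, were chosen for their role or level after their values were seen. Promoters came from RefSeq (GRCm38.p6) and exon overlaps from GENCODE vM21; at most 0.4% of the 50-base stretches of a member's longest transcript occur in another gene. The result of 1 gene list is not reported here.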

Additional observations from a re-analysis of the deposited data

Results flagged for a closer look

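In 3 of the 30 groups of 4 or 7 libraries checked, 1 library lay far from the others of its genotype on the log2 scale, and chance alone sets apart a library in about 5% of such groups. Myh11 was at 11.0 TPM in Tert-123 tumour 4, above the other 6 tumours of that group, the highest of which was at 3.18 TPM. That library also had the highest fibroblast (2924 TPM) and macrophage (5240 TPM) marker sums, whose part in the value was not tested. Des was at 1.25 TPM in Braf tumour 2, above the 0.291 to 0.415 TPM of the other 3 Braf tumours. Cnn1 was at 0 TPM in Braf tumour 1, below the 0.27 to 0.272 TPM of the other 3. Des and Cnn1 are close to the lower end of detection in this group.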

How the results depend on the processing

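Of 238 alternatives to the counts of called genes, 221 stayed within 1.5 times the reported count. Many of these belong to counts that were 0 and stayed 0 throughout, and all 17 that moved concerned the other counts. The count called higher in K5-Tert against Braf tumours moved in 6 of 29 alternatives. For K5-Tert against Braf tumours, 3 genes were called higher, against 0 with Xist as a covariate and 0 without K5-Tert tumours 2 and 4; leaving out 1 library at a time gave 0 to 3. For K5-Tert against Tert-123 tumours, 3 became 0 with library weights and 0 without K5-Tert tumours 2 and 4, and 0 to 3 with 1 library left out. For mutant tumours against pools, 3 higher became 1 with quantile normalization, 1 with only the compared groups in the fit and 1 with the fibroblast covariate, and 1 to 4 with 1 library left out. There, 1 lower became 0 with the endothelial covariate and 0 to 1 with 1 library left out. It became 2 with the fibroblast covariate, where Myl9 passed too (-1.005, limma adjusted p = 0.0379). With the filter applied to the 15 tumours alone it became 0, since Myh11 was left untested. That filter also left Rgs5 and Myl9 untested, as each reached 10 TPM in 3 tumours. Rgs5 therefore had no call under it in either K5-Tert comparison. The covariates and the tumour-only filter were added after seeing the data. The cause was not tested.

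Signs turned only for differences that had not passed. In K5-Tert against Braf tumours, Tpm2 was 0.23 with TMM-type factors, 0.12 with quantile normalization, 0.19 without the length trend and 0.11 without K5-Tert tumours 2 and 4 (-0.56 to 0.002 with 1 library left out), and with library weights Myh11 was -0.054 and Pdgfrb -0.024. In Tert-123 against Braf tumours, Tagln was -0.046 with Xist and -0.16 with the endothelial covariate (-0.14 to 0.39 with 1 library left out), Pdgfrb was -0.21 with the endothelial covariate and Rgs5 0.078 with quantile normalization. In K5-Tert against Tert-123 tumours, library weights gave -0.031 for Myl9 (-0.057 to 0.62 with 1 left out), -0.023 for Tpm2 (-0.28 to 0.28 with 1 left out), -0.51 for Myh11 and -0.29 for Pdgfrb, and Tpm2 was -0.094 with Xist and -0.046 with the fibroblast covariate. Against the pools, Tagln was -0.12 with the fibroblast covariate, and the endothelial one gave 0.81 for Myl9 and 1.46 for Rgs5 (-1.505 to 0.306 with 1 library left out).

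A filter of 50 TPM kept 0 of the 10 genes and gave no value. Without any filter, Acta2 and Tagln lost their calls against Braf tumours (adjusted p = 0.0606 and 0.0554) while Rgs5 and Des passed, and Acta2 lost its call against Tert-123 tumours (adjusted p = 0.0873). No paired analysis was possible because the labels number no replicates. Depth is unknown, so the precision of the lowest values cannot be given.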
